A study of Rattus norvegicus with 59 samples.

Results

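Cadmium (Cd) and hexavalent chromium (Cr) were compared for what each did to gene expression in rat liver 3 days after a single exposure. The measure is a difference of differences on the log2 scale: the Cd exposed minus Cd control difference, less the Cr exposed minus Cr control difference, called the difference between metals below. It was read on 20 of the 59 arrays of the series, in 4 groups of 5 livers that the labels call biological replicates. The first group was given 1.25 mg/kg CdCl2, the second was its own control at day 3, the third was given 20 mg/kg Na2Cr2O7, and the last was the Cr control at day 3. All 20 animals were male Sprague-Dawley rats that received 1 intraperitoneal injection, with sterile saline as the vehicle in every group, and RNA came from whole liver tissue. The labels give the Cr dose as 20 mg/kg, and the study's methods name another dose in 1 place. Exposed and control livers of a metal were separate rats, and the 2 metals had their own controls, so an effect of when or how each experiment was run is removed only as far as it was shared by exposed and control livers.

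Cd enters hepatocytes and is held there by metallothioneins, small cysteine-rich proteins whose genes are switched on through metal response elements. Hexavalent chromium enters cells as chromate and is reduced inside them, where it can bind DNA. The liver also holds Kupffer cells, the resident macrophages, which are replaced in part by blood monocytes after injury, and hepatocytes secrete acute phase proteins when cytokines reach them. In whole liver, fewer cells of a type and less RNA per cell cannot be told apart.

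Among gene lists with at least 5 tested members, the difference between metals at day 3 had its highest medians for antigen presentation, 0.61, interferon-stimulated genes, 0.49, and macrophage markers, 0.46, and its lowest for ribosome biogenesis, -0.23. Of single genes, the acute phase gene Lcn2 had the largest positive difference, 5.48, followed by the matrix gene Lum with 2.61, and the nuclear receptor gene Nr0b2 the largest negative one among named genes, -2.16. On the positive side most of the difference came from the Cd livers. On the negative side it came as often from the Cr livers. In limma (Benjamini-Hochberg over 15521 probe sets), 0 probe sets reached an adjusted p of 0.05 for the difference between metals, which makes 0% of those tested. The smallest adjusted p was 0.0587, shared by 12 probe sets. An unadjusted p of 0.05 was reached by 1655 probe sets (10.7%), 947 higher (6.1%) and 708 lower (4.56%). Of these, 127 (0.818% of those tested) also had a difference of at least 1.8-fold, the study's threshold for this day, 89 higher and 38 lower. Other settings of the same test gave from 0 to 161 calls at the adjusted p, the highest count when 1 liver was left out.

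The liver concerned carries the label Cd exposed, replicate 5. Where the probe sets called for Cd were found without it (748 probe sets), its signal lay at a median of 26.3% of the way from the mean of the Cd controls to the mean of the other 4 exposed livers. The same measure for exposed livers 1 to 4, each with the probe sets called without it, was 94.0%, 71.7%, 141% and 126%. On the first principal component of all 20 arrays (18.5% of the variance) it had a score of -1.64, among the controls, while the other 4 Cd exposed livers lay between 13 and 29.3. It was not at the level of controls throughout. For 14 interferon-stimulated genes its median position was 48.5% and for 7 DNA replication genes 56.0%, against 10.02% for 9 acute phase proteins, 12.7% for 15 macrophage markers and 9.03% for 9 matrix genes. Single members overlapped widely between lists. They ran from 3.46% to 77.2% for interferon-stimulated genes and from 4.93% to 88.1% for replication genes. The ranges were -21.8% to 45.6% for acute phase proteins, -18.5% to 73.1% for macrophage markers and -31.2% to 58.7% for matrix genes. Results below are given with all 20 livers first, and then without this liver for some of the genes and lists. Other lists changed too. At the adjusted p without this liver, 4 macrophage markers were higher and 2 lower. Of the acute phase proteins 2 were higher, and so were 2 neutrophil markers. Among all 9394 genes 105 were higher and 22 lower by that rule. Without it, 161 probe sets reached an adjusted p of 0.05 for the difference between metals, 131 higher and 30 lower. It is the liver whose removal gave the most calls for this same contrast. Adjusted p-values without it are conditional on that choice and are given as a description only.

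Metallothionein is the usual reading of Cd exposure in liver. The log2 signal of Mt2A was 11.22, 10.59, 9.87, 11.27 and 7.72 in Cd exposed livers 1 to 5, against 9.09, 8.06, 7.60, 8.13 and 9.98 in Cd control livers. It was 8.75, 7.86, 8.15, 9.18 and 9.26 in Cr exposed livers, against 8.60, 7.74, 8.24, 8.40 and 8.60 in Cr control livers. Cd exposed liver 5 was thus below 4 of the 5 Cd controls, Cd control liver 5 was above 1 of the exposed livers numbered 1 to 4, and the Cr groups overlapped. The difference between metals for Mt2A was 1.24 (SE 0.77, unadjusted p = 0.122, adjusted p = 0.6), and without Cd exposed liver 5 it was 1.84 (adjusted p = 0.143). With both livers numbered 5 of the Cd experiment left out, a setting added after seeing the data, it was 2.19 (adjusted p = 0.0422). These 2 were the lowest exposed and the highest control liver of that experiment for Mt2A itself. A larger difference is therefore built into their removal, and that adjusted p is a description only. Mt1 lay below the filter on low signals and was not tested. Its log2 signal was 6.37, 6.03, 5.53, 6.08 and 4.88 in Cd exposed livers, against 5.73, 5.38, 5.44, 5.08 and 5.48 in Cd control livers, and it ranged from 4.12 to 4.72 in Cr exposed livers, against 4.15 to 4.56 in Cr control livers. The Mt1 signals of the Cd experiment, controls included, were all above those of the Cr experiment. Of the 7 metallothionein and zinc transporter genes tested, 0 had an unadjusted p of 0.05 or less for the difference between metals.

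The stretch before the Mt2A start site is shown because it carries the metal response element cores through which Cd is known to act. The 2 forms of the core searched on both strands were TGCACNC and TGCGCNC, and capitals mark each match. The 250 bases directly upstream, at chr19:10838709-10838958 on the minus strand (RefSeq, GRCr8), hold 4 matches, 2 of each form. At least 1 match of either form was found in 21.2% of 27457 upstream stretches of the same length, so a single match says little.
Mt2A: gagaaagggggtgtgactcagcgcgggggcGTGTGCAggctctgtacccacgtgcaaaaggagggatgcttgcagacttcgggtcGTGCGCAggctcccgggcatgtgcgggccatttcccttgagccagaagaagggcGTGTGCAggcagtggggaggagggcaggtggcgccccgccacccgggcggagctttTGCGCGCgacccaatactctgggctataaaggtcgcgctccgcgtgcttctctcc

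**Figure D1:**
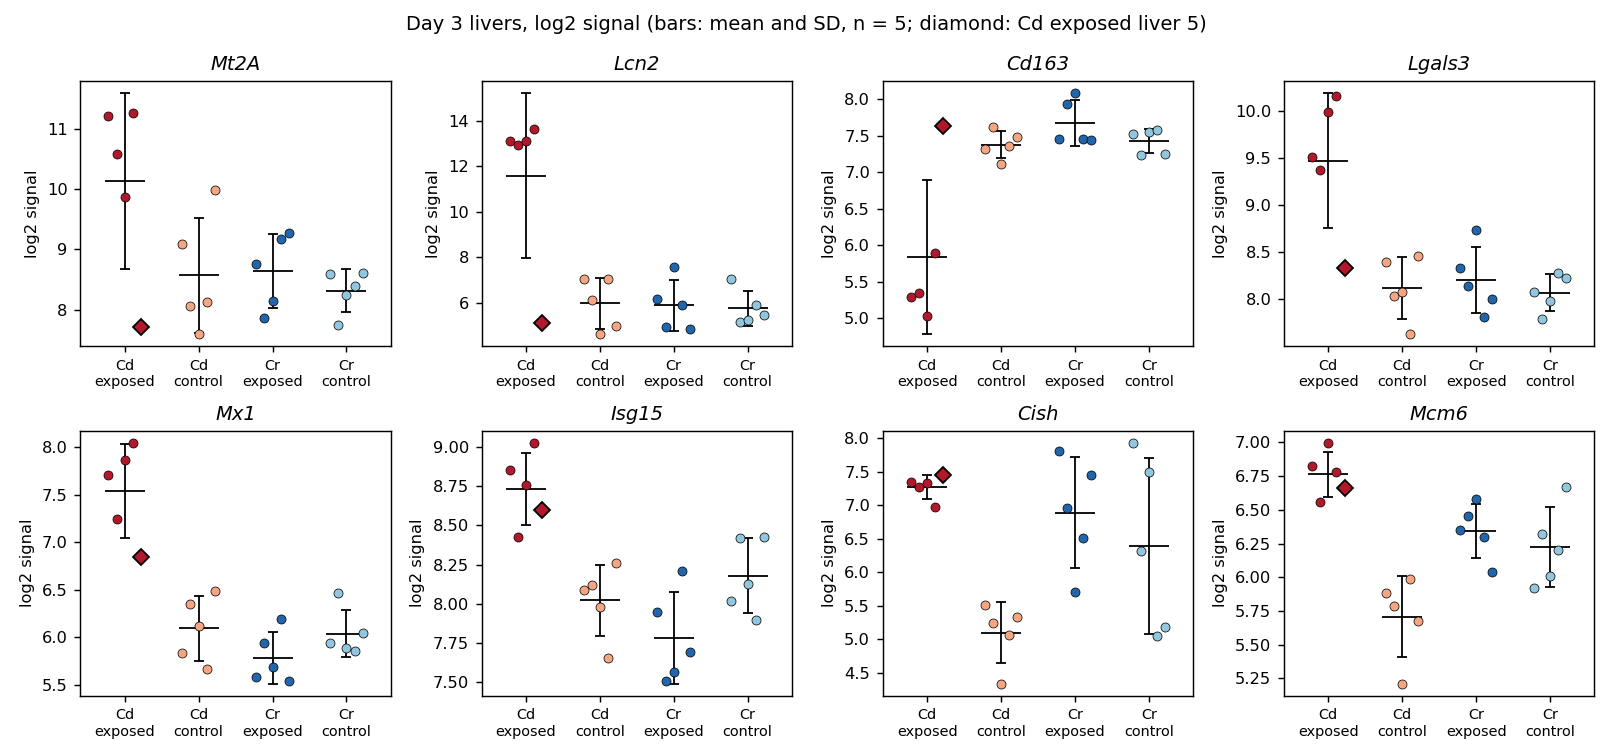
Log2 signal of 8 genes in each of the 20 day 3 livers, by group, with the mean and SD (n = 5) as bars and Cd exposed liver 5 drawn as a diamond. That liver lies with the controls for Mt2A, Lcn2, Cd163 and Lgals3, and with the other Cd exposed livers for Isg15, Cish and Mcm6.

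Interferon-stimulated genes had a positive difference between metals in every member tested. Of 34 tested, 34 were positive and 17 had an unadjusted p of 0.05 or less, 17 higher and 0 lower, where 6.75% of all 9394 genes were higher by that rule and 4.6% lower. The counts of the lists that follow are to be read against these shares. The median over the list was 0.49, against -0.00498 over all genes. Mx1 encodes a GTPase that blocks viral replication. Its log2 signal was 7.71, 7.24, 7.87, 8.04 and 6.84 in Cd exposed livers, against 5.84, 6.35, 6.12, 5.67 and 6.48 in Cd control livers, and 5.58, 5.93, 5.68, 6.19 and 5.54 in Cr exposed livers, against 5.94, 6.46, 5.89, 5.86 and 6.05 in Cr control livers. All 5 Cd exposed livers, number 5 included, were above the other 15. The difference between metals was 1.70 (SE 0.29, unadjusted p = 9.73e-06, adjusted p = 0.0587), made of 1.45 (adjusted p = 0.00243) after Cd and -0.25 (adjusted p = 0.722) after Cr, and without Cd exposed liver 5 it was 1.88 (adjusted p = 9.81e-04).

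Isg15 encodes a ubiquitin-like protein that interferon induces, and Usp18 the protease that removes it. These genes, with Mt1, Igtp, Irf7, Oas1a, Ly86, Fcgr3a, Aif1, Cd5l, RT1-Da, Rhob, Mcm4 and Asl, were picked for the text after their values had been seen. Isg15 had log2 signals of 8.85, 8.42, 8.76, 9.03 and 8.60 in Cd exposed livers, against 8.09, 8.12, 7.98, 7.65 and 8.26 in Cd control livers, and of 7.95, 7.50, 7.56, 8.21 and 7.69 in Cr exposed livers, against 8.02, 8.42, 8.13, 7.89 and 8.43 in Cr control livers. The Cd exposed livers were above all Cd controls, 1 Cr control, number 5, was above the lowest of them, and the Cr exposed livers were on average below their controls. The difference was 1.11 (SE 0.21, unadjusted p = 3.58e-05, adjusted p = 0.0587), of which 0.71 came from Cd and -0.40 from Cr. For Usp18 it was 1.04 (SE 0.23, unadjusted p = 1.69e-04, adjusted p = 0.0937), with 0.61 after Cd and -0.43 after Cr. Usp18 ranged from 8.48 to 9.14 in Cd exposed livers, against 7.57 to 8.37 in Cd control livers, and from 7.46 to 7.97 in Cr exposed livers, against 7.90 to 8.59 in Cr control livers. Gbp2, a guanylate-binding protein induced by interferon gamma, had 8.29, 8.06, 8.80, 8.70 and 6.97 in Cd exposed livers, against 7.33, 7.05, 6.76, 6.16 and 6.58 in Cd control livers, and ranged from 6.37 to 6.84 in Cr exposed livers, against 6.398 to 6.78 in Cr control livers. Here Cd exposed liver 5 was inside the range of the Cd controls. The difference was 1.300 (SE 0.36, unadjusted p = 0.0019, adjusted p = 0.163), and 1.60 (adjusted p = 0.00413) without that liver. Irf7, the transcription factor that amplifies the interferon response, had a difference of 0.78 (SE 0.17, unadjusted p = 2.14e-04, adjusted p = 0.0976) and Oas1a, which makes the second messenger of RNase L, one of 1.02 (SE 0.41, unadjusted p = 0.023, adjusted p = 0.372). Without Cd exposed liver 5 the list had 19 members at an unadjusted p of 0.05 or less, all higher. At an adjusted p of 0.05 or less it had 8. Of all 9394 genes, 746 were higher and 480 lower at that unadjusted p without this liver, and 105 and 22 at the adjusted p. After Cd alone 10 of the 34 rose and 0 fell (302 of 9394 genes rose, 3.21%, and 34 fell, 0.362%), and after Cr 0 passed in limma (14 of all genes rose, 0.149%, and 2 fell, 0.0213%), with 8 members lower and 0 higher after Cr at an unadjusted p of 0.05 or less (3.39% of all genes were lower and 7.16% higher by that rule).

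Upstream stretches of 4 members are shown because the list moved together and the element that binds the interferon-activated factors can be read in them. It was searched as GAAANNGAAA on both strands of the 250 bases before each start, where matches may overlap. Of the 17 members with an unadjusted p of 0.05 or less, 15 had a stretch in RefSeq and 8 of those held a match, and of the other 17 members 11 had a stretch and 8 held a match. Among all 27457 stretches 3.29% held one. The element was no more frequent among the members past that p than among the others. Capitals mark the matches. The stretches are 100 bases each, from GRCr8. Gbp2 is at chr2:234005627-234005726 on the plus strand, Irf7 at chr1:205800038-205800137 on the minus strand, Oas1a at chr12:41330366-41330465 on the plus strand, where 2 matches overlap, and Igtp, an interferon-inducible GTPase, at chr10:42874899-42874998 on the plus strand.
Gbp2: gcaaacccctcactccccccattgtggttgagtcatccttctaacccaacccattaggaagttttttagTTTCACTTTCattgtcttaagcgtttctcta
Irf7: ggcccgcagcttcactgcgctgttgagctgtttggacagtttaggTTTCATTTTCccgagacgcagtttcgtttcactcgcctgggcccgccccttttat
Oas1a: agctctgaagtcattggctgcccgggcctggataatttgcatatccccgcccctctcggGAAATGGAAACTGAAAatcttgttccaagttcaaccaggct
Igtp: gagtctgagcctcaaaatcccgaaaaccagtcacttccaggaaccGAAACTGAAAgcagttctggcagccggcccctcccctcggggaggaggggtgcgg

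Genes of antigen presentation were also higher. Of 10 tested, 9 had an unadjusted p of 0.05 or less for the difference between metals, 9 higher and 0 lower (median 0.61), where 6.75% of all genes were higher and 4.6% lower. After Cd 7 of the 10 rose at the adjusted p (3.21% of all genes did) and after Cr 0 did. RT1-Bb and RT1-Ba encode the chains of a class II histocompatibility molecule. RT1-Bb had log2 signals of 7.84, 7.95, 7.65, 8.49 and 6.99 in Cd exposed livers, against 6.96, 4.09, 4.08, 5.92 and 7.06 in Cd control livers, and of 7.15, 7.79, 7.28, 7.11 and 7.69 in Cr exposed livers, against 7.91, 6.36, 6.51, 7.50 and 7.85 in Cr control livers. The Cd controls spread widely, 2 of them were near 4, and 3 of the 5 Cd exposed livers were within the span of the Cr groups. The difference was 1.98 (SE 0.71, unadjusted p = 0.0117, adjusted p = 0.3) and the Cd control minus Cr control difference was -1.61 (adjusted p = 0.199). RT1-Ba had 8.70, 9.08, 9.39, 9.67 and 9.01 in Cd exposed livers, against 8.37, 7.73, 7.49, 7.74 and 8.52 in Cd control livers, and 8.23, 9.01, 8.12, 8.43 and 8.57 in Cr exposed livers, against 9.07, 8.05, 8.26, 8.71 and 8.74 in Cr control livers. Its difference was 1.297 (SE 0.32, unadjusted p = 7.18e-04, adjusted p = 0.134). Another 3 probe sets named for RT1-Ba were tested, their differences ran from -3.05 to 0.21, and 1 of them was negative, so the probe sets disagree. These genes have close copies that vary between rats, and a probe set may read more than 1 of them. RT1-Da, the alpha chain of another class II molecule, had a difference of 0.82 (SE 0.34, unadjusted p = 0.0239, adjusted p = 0.378).

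Macrophage genes split in direction. Of 19 tested markers 9 were higher and 3 lower at an unadjusted p of 0.05 or less (median 0.46). The 3 lower ones were Cd163, Clec4f and Cd5l, which are known from resident Kupffer cells. In all, 15 of the 19 had a positive difference (4555 of all 9394 genes did), so these 3 do not stand for every marker of those cells. Cd163 encodes the scavenger receptor for haptoglobin-bound hemoglobin. Its log2 signal was 5.28, 5.35, 5.03, 5.89 and 7.63 in Cd exposed livers, against 7.32, 7.61, 7.11, 7.36 and 7.49 in Cd control livers, and 7.46, 7.94, 8.09, 7.45 and 7.45 in Cr exposed livers, against 7.53, 7.24, 7.55, 7.58 and 7.25 in Cr control livers. Cd exposed livers 1 to 4 were below every other liver and liver 5 was above every Cd control. The difference between metals was -1.79 (SE 0.46, unadjusted p = 9.03e-04, adjusted p = 0.139) with all livers and -2.24 (adjusted p = 9.78e-05) without Cd exposed liver 5. Clec4f, a lectin of Kupffer cells, had 9.16, 9.03, 8.96, 8.08 and 10.64 in Cd exposed livers, against 10.55, 10.28, 10.25, 10.12 and 10.60 in Cd control livers, and ranged from 10.02 to 10.55 in Cr exposed livers, against 10.20 to 10.48 in Cr control livers. The same split between liver 5 and the other Cd exposed livers was seen. Its difference was -1.12 (SE 0.40, unadjusted p = 0.0112, adjusted p = 0.298), and -1.49 (adjusted p = 0.00393) without that liver, and for Cd5l, which inhibits macrophage apoptosis, it was -1.04 (SE 0.44, unadjusted p = 0.0302, adjusted p = 0.404), and -0.69 without Cd exposed liver 1.

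Several single genes known from monocytes and macrophages, named for the size of their difference or after their values were seen, had positive differences. Ms4a6a, a four-pass membrane protein of monocytes and macrophages, had log2 signals of 8.02, 8.01, 8.42, 8.77 and 7.53 in Cd exposed livers, against 6.61, 7.18, 7.08, 6.50 and 7.35 in Cd control livers, and of 6.22, 6.72, 6.401, 6.64 and 6.57 in Cr exposed livers, against 6.96, 7.29, 6.95, 6.76 and 7.18 in Cr control livers. All 5 Cd exposed livers were above all other livers, and all 5 Cr exposed livers were below all Cr controls. The difference was 1.73 (SE 0.27, unadjusted p = 4.00e-06, adjusted p = 0.0587), which is 1 of the 12 probe sets at the smallest adjusted p, and it was 1.88 (adjusted p = 9.38e-04) without Cd exposed liver 5. Lgals3, the lectin galectin 3 that activated macrophages make, had 9.51, 9.37, 9.99, 10.16 and 8.33 in Cd exposed livers, against 8.39, 8.04, 8.08, 7.63 and 8.46 in Cd control livers, and ranged from 7.81 to 8.73 in Cr exposed livers, against 7.79 to 8.28 in Cr control livers. Only liver 5 of the Cd exposed group overlapped the controls. Its difference was 1.22 (SE 0.36, unadjusted p = 0.00318, adjusted p = 0.19), with 1.503 (adjusted p = 0.00949) when liver 5 was left out. Ly6c, a surface protein of inflammatory monocytes, had a difference of 1.71 (SE 0.32, unadjusted p = 2.85e-05, adjusted p = 0.0587) and Plac8, a cysteine-rich protein of myeloid cells, one of 1.44 (SE 0.28, unadjusted p = 5.30e-05, adjusted p = 0.0616). Ly86, the partner of the receptor RP105, had 1.02 (SE 0.21, unadjusted p = 8.67e-05, adjusted p = 0.0697), Fcgr3a, an Fc gamma receptor, had 0.91 (SE 0.30, unadjusted p = 0.00596, adjusted p = 0.236), and Aif1, an actin-bundling protein of macrophages, had 0.93 (SE 0.21, unadjusted p = 3.21e-04, adjusted p = 0.104).

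The markers of other blood cells were mostly below the filter. Of 9 neutrophil markers on the array 2 were tested, of 11 for T and NK cells 2, and of 4 for B and plasma cells 1. The 2 neutrophil markers were S100a9 and Fcgr3a, and Fcgr3a is also given above among the monocyte and macrophage genes. S100a9, a calcium-binding protein abundant in neutrophils and monocytes, had log2 signals of 7.78, 7.50, 8.86, 7.45 and 6.47 in Cd exposed livers, against 5.63, 6.47, 5.09, 5.06 and 4.995 in Cd control livers, and of 6.08, 6.22, 6.596, 5.87 and 6.89 in Cr exposed livers, against 6.12, 5.96, 5.88, 6.33 and 5.76 in Cr control livers. The lowest Cd exposed liver, number 5, was level with the highest Cd control, the difference was 1.84 (SE 0.47, unadjusted p = 8.62e-04, adjusted p = 0.138), and the part these cells played in the other lists was not tested. Of 14 hepatocyte markers, 1 was higher and 0 were lower at an unadjusted p of 0.05 or less, near the shares over all genes (6.75% higher and 4.6% lower), with a median of 0.01, and the mean log2 signal of the 14 ran from 13.37 to 13.53 in Cd exposed livers, against 13.49 to 13.56 in Cd control livers, and from 13.40 to 13.55 in Cr exposed livers, against 13.46 to 13.59 in Cr control livers. Apoa2, an HDL apolipoprotein, had 0.25, and Tat, which degrades tyrosine, had -0.59 (unadjusted p = 0.137). The 4 red cell genes tested had a median of -0.84, and Alas2, the first enzyme of heme synthesis in red cell precursors, had -1.09 (SE 0.45, unadjusted p = 0.0237, adjusted p = 0.376).

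**Figure D2:**
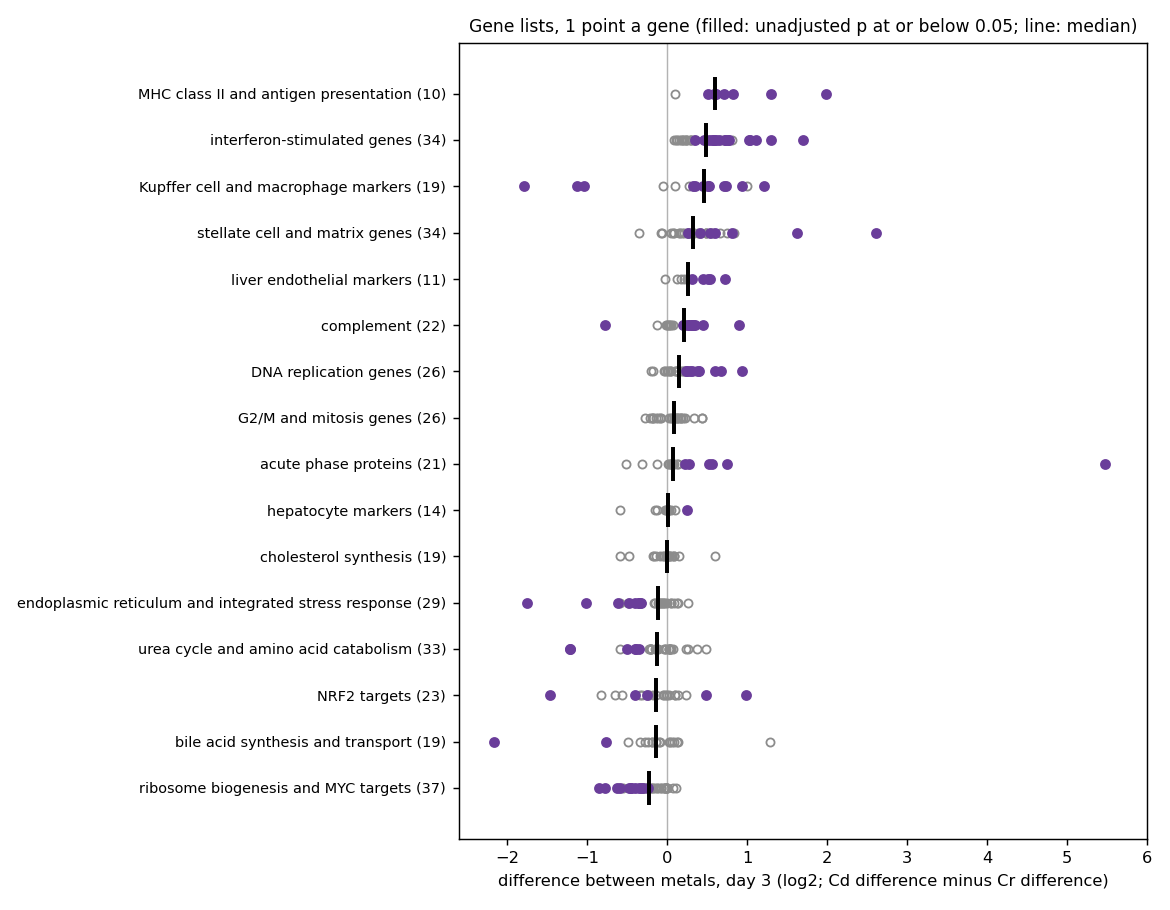
Difference between metals at day 3 on the log2 scale for each tested gene of 16 lists (number of genes in brackets), with filled points for an unadjusted p of 0.05 or less and a line at the list's median. Medians run from 0.61 for antigen presentation down to -0.23 for ribosome biogenesis, and the macrophage list has points on both sides.

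Lcn2 and Spink1, secreted proteins of the acute phase, separated 4 of the 5 Cd exposed livers from all others. Lcn2 encodes lipocalin 2, which binds bacterial siderophores. Its log2 signal was 13.12, 12.95, 13.11, 13.64 and 5.12 in Cd exposed livers, against 7.04, 6.15, 4.64, 7.06 and 5.01 in Cd control livers, and 6.20, 4.94, 7.59, 5.90 and 4.86 in Cr exposed livers, against 7.05, 5.15, 5.27, 5.89 and 5.47 in Cr control livers. Cd exposed livers 1 to 4 stood more than 5 log2 units above every other liver, and liver 5 was inside the controls. The difference between metals was 5.48 (SE 1.63, unadjusted p = 0.00318, adjusted p = 0.19), and 7.09 (adjusted p = 1.50e-04) without liver 5. Of 21 acute phase proteins tested 6 were higher and 0 lower at an unadjusted p of 0.05 or less, and the median was 0.07. Orm1, alpha-1-acid glycoprotein, had 0.75 (SE 0.27, unadjusted p = 0.013, adjusted p = 0.314). Spink1, a trypsin inhibitor that the liver makes in the acute phase, had log2 signals of 10.68, 9.70, 11.09, 10.996 and 7.72 in Cd exposed livers, against 9.08, 7.60, 7.97, 7.31 and 6.78 in Cd control livers, and of 7.60, 8.65, 8.96, 6.55 and 6.84 in Cr exposed livers, against 7.18, 7.89, 7.89, 6.95 and 7.21 in Cr control livers. The pattern was that of Lcn2, with livers 1 to 4 above all others. The difference of Spink1 was 1.995 (SE 0.82, unadjusted p = 0.0241, adjusted p = 0.38). Another 2 probe sets named for Spink1 were tested, with differences of 0.145 and 2.01. Wfdc21, a secreted protein with a WAP domain, had 1.42 (SE 0.48, unadjusted p = 0.00753, adjusted p = 0.26).

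The chemokine Cxcl1, which draws neutrophils, had log2 signals of 8.74, 7.93, 9.06, 7.42 and 6.20 in Cd exposed livers, against 7.17, 6.08, 6.55, 6.84 and 6.90 in Cd control livers, and of 6.94, 6.46, 6.33, 6.84 and 6.67 in Cr exposed livers, against 7.35, 8.95, 7.78, 6.73 and 6.87 in Cr control livers. The groups overlapped in both metals, and 1 Cr control, at 8.95, was above all Cd exposed livers but number 3. The difference was 2.05 (SE 0.62, unadjusted p = 0.00352, adjusted p = 0.199), with 1.16 (adjusted p = 0.182) after Cd and -0.89 (adjusted p = 0.473) after Cr. Of 14 chemokine genes tested 4 were higher and 0 lower at an unadjusted p of 0.05 or less, among them Ccl6, with 0.49 (SE 0.15, unadjusted p = 0.0042, adjusted p = 0.209). Ltc4s, leukotriene C4 synthase, had 2.11 (SE 0.66, unadjusted p = 0.00461, adjusted p = 0.214), of which 1.15 came from Cd and -0.96 from Cr. Of 22 complement genes 10 were higher and 1 lower by the same p, and C6, of the membrane attack complex, had 0.90 (SE 0.30, unadjusted p = 0.00783, adjusted p = 0.263). The 1 lower gene was Cfd, which starts the alternative pathway, with -0.77 (SE 0.36, unadjusted p = 0.042, adjusted p = 0.44). In the NF-kB list 1 of 16 was higher, Tnfaip3, the inhibitor of that pathway, with 0.64 (SE 0.22, unadjusted p = 0.00862, adjusted p = 0.272), and Nfkb2, a subunit, had 0.28 (unadjusted p = 0.0593).

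Matrix and sinusoid genes were higher in part. Of 34 stellate cell and matrix genes 7 were higher and 0 lower at an unadjusted p of 0.05 or less, where 6.75% of all genes were higher and 4.6% lower. The median was 0.33, and 0.18 without Cd exposed liver 3. Lum, the collagen-binding proteoglycan lumican, had log2 signals of 5.94, 8.05, 9.73, 7.02 and 7.49 in Cd exposed livers, against 6.55, 4.43, 6.21, 5.13 and 6.11 in Cd control livers, and of 5.71, 6.06, 6.64, 5.50 and 5.85 in Cr exposed livers, against 7.85, 5.48, 6.395, 5.07 and 8.20 in Cr control livers. The spread was wide in all groups but the Cr exposed one, and the Cr controls reached into the Cd exposed range. Its difference was 2.61 (SE 0.89, unadjusted p = 0.00859, adjusted p = 0.272), and that of Dcn, decorin, was 1.63 (SE 0.61, unadjusted p = 0.0152, adjusted p = 0.326). Without Cd exposed liver 5, 13 of the 34 were higher at an unadjusted p of 0.05 or less. Of all 9394 genes, 746 were higher and 480 lower by that rule without this liver. Of 11 endothelial markers 5 were higher and 0 lower, led by Fcgr2b, an inhibitory Fc receptor of sinusoidal cells, with 0.73 (SE 0.19, unadjusted p = 0.00133, adjusted p = 0.145), and the mannose receptor Mrc1, with 0.53 (SE 0.15, unadjusted p = 0.00227, adjusted p = 0.18). Fabp4, a fatty acid carrier of fat cells, macrophages and endothelium, had 1.48 (SE 0.56, unadjusted p = 0.0151, adjusted p = 0.326). Of 14 annexin and S100 genes 1 was higher, and S100a4 had 0.99 (SE 0.63, unadjusted p = 0.131, adjusted p = 0.612) and S100a11 0.60. Of 20 cytoskeleton genes 3 were higher, led by Arpc1b, of the actin-nucleating complex, with 0.67 (SE 0.17, unadjusted p = 6.21e-04, adjusted p = 0.132).

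Some genes of DNA replication were higher after Cd relative to Cr, and the test of single genes found none among those of mitosis. Of 26 replication genes 9 were higher and 0 lower at an unadjusted p of 0.05 or less (median 0.15), and of 26 mitosis genes 0 were higher and 0 lower (median 0.09). Mcm6, a subunit of the replicative helicase, had log2 signals of 6.83, 6.56, 6.996, 6.78 and 6.66 in Cd exposed livers, against 5.88, 5.79, 5.21, 5.98 and 5.67 in Cd control livers, and of 6.35, 6.45, 6.58, 6.30 and 6.04 in Cr exposed livers, against 5.92, 6.32, 6.01, 6.20 and 6.67 in Cr control livers. The Cd exposed livers, number 5 among them, were all above the Cd controls, and the Cr groups overlapped each other and reached the lower Cd exposed livers. The difference was 0.94 (SE 0.21, unadjusted p = 2.14e-04, adjusted p = 0.0976), the Cd control minus Cr control difference was -0.51 (adjusted p = 0.162), and the part after Cd was 1.06 (adjusted p = 0.00238). The subunits Mcm3 and Mcm4 had 0.68 (SE 0.17, unadjusted p = 7.80e-04, adjusted p = 0.134) and 0.60 (SE 0.21, unadjusted p = 0.0112, adjusted p = 0.298). Of the mitosis genes, Top2a had 0.44 (unadjusted p = 0.16) and Mki67 0.44 (unadjusted p = 0.204).

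For Cish and Dusp6 the Cd groups lay apart and the Cr controls were widely spread. Cish, an inhibitor of the growth hormone receptor that its signal induces, had log2 signals of 7.35, 7.27, 7.34, 6.97 and 7.45 in Cd exposed livers, against 5.51, 5.24, 4.34, 5.07 and 5.34 in Cd control livers, and of 7.82, 6.96, 5.71, 6.52 and 7.46 in Cr exposed livers, against 7.93, 6.31, 7.50, 5.05 and 5.18 in Cr control livers. The Cr controls were spread over nearly 3 log2 units. The difference was 1.68 (SE 0.66, unadjusted p = 0.0191, adjusted p = 0.352). Dusp6, a phosphatase of ERK kinases, had 10.55, 10.78, 10.59, 10.58 and 10.60 in Cd exposed livers, against 9.32, 9.60, 9.10, 9.16 and 9.09 in Cd control livers, and ranged from 9.68 to 10.61 in Cr exposed livers, against 9.19 to 10.83 in Cr control livers. The same 2 Cr controls, numbers 4 and 5, were low for both genes. The difference of Dusp6 was 1.26 (SE 0.37, unadjusted p = 0.00314, adjusted p = 0.19). In the immediate early list 3 of 19 were higher and 0 lower at an unadjusted p of 0.05 or less (6.75% of all genes were higher), and Ier3 had 0.997 (SE 0.35, unadjusted p = 0.0104, adjusted p = 0.292). In the growth hormone list 2 of 16 were higher, and Igfbp1, which binds insulin-like growth factors, had -1.06 (SE 0.63, unadjusted p = 0.108, adjusted p = 0.581).

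**Figure D3:**
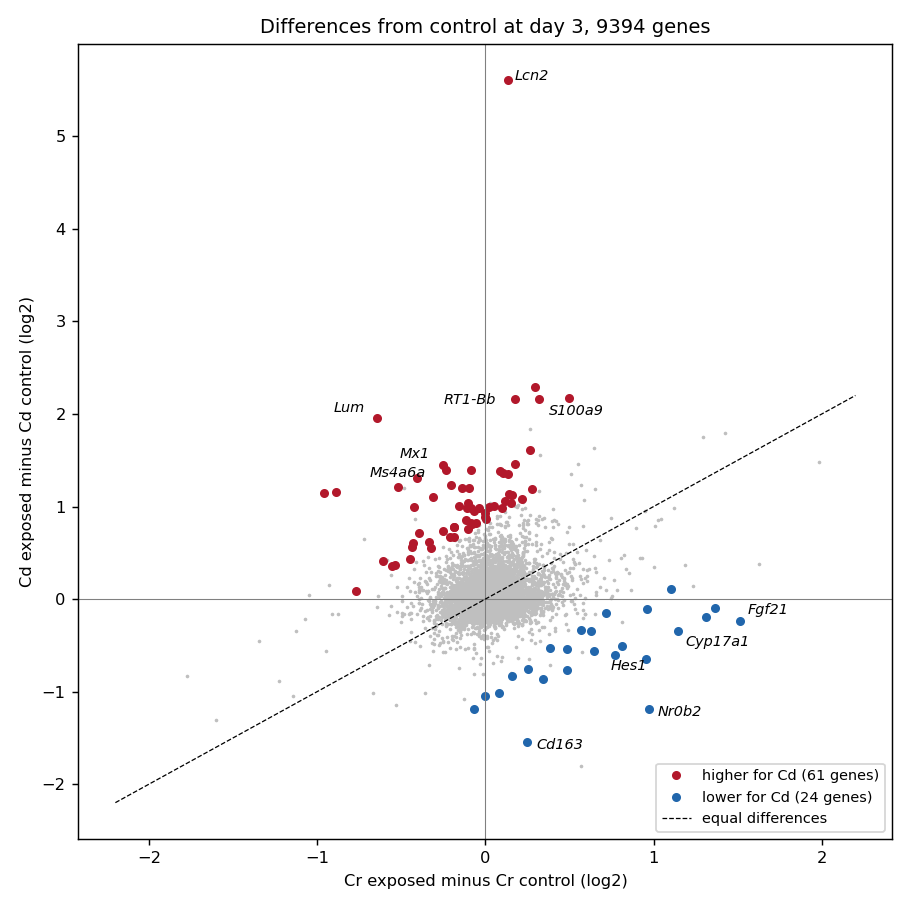
Difference of each of 9394 genes from its control at day 3 on the log2 scale, with Cr along the horizontal axis and Cd along the vertical one; red and blue points had an unadjusted p of 0.05 or less and at least 1.8-fold for the difference between metals. The 61 higher genes lie mainly along the Cd axis, with Lcn2 at 5.61 after Cd and 0.13 after Cr, and the 24 lower ones (85 genes in all, 0.905%) extend along the Cr axis to 1.51 for Fgf21.

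The 2 sides were composed differently. Of the 89 probe sets on the higher side 58 were called for Cd at the adjusted p (2.98% of all probe sets were) and 0 for Cr (0.206%), and the Cd difference was the larger in size in 81. Of the 38 on the lower side 7 were called for Cd and 1 for Cr, the Cd difference was the larger in 19, and the medians were -0.58 after Cd and 0.63 after Cr. The Cd and Cr differences had opposite signs in 61 of the 89 and in 30 of the 38, and in 44.7% of all probe sets. These counts describe probe sets that the same contrast chose. The Cd control minus Cr control difference, which enters the contrast, had a median of -0.17 over the 89, 0.31 over the 38 and -0.04 over all probe sets. It was called at 10 probe sets (0.0644%) at day 3, and at 1528 when the 15 controls of each metal were pooled over days.

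Nr0b2 encodes SHP, the receptor through which bile acids repress their own synthesis. Its log2 signal was 7.47, 7.89, 7.28, 8.79 and 8.39 in Cd exposed livers, against 9.24, 8.85, 9.72, 9.03 and 8.93 in Cd control livers, and 8.23, 8.50, 9.14, 9.16 and 9.22 in Cr exposed livers, against 6.99, 8.43, 7.39, 8.20 and 8.40 in Cr control livers. Every Cd exposed liver was below every Cd control, and 4 of the Cr exposed livers were above all Cr controls, while the 2 control groups did not overlap either. The difference was -2.16 (SE 0.44, unadjusted p = 8.14e-05, adjusted p = 0.0697), made of -1.19 (adjusted p = 0.0391) after Cd and 0.97 (adjusted p = 0.206) after Cr, and the Cd control minus Cr control difference was 1.27 (adjusted p = 0.0933). With controls pooled over the 3 days the difference was -1.35 (adjusted p = 0.277). Of 19 bile acid genes 0 were higher and 2 lower at an unadjusted p of 0.05 or less, and Abcg5, a sterol exporter, had 1.29 (SE 0.71, unadjusted p = 0.0853, adjusted p = 0.544). Hes1, a repressor that Notch induces, had 8.98, 9.44, 8.93, 9.53 and 9.57 in Cd exposed livers, against 9.38, 9.83, 9.88, 9.92 and 9.98 in Cd control livers, and 9.28, 9.81, 9.49, 10.12 and 9.88 in Cr exposed livers, against 8.50, 8.83, 8.49, 9.46 and 9.26 in Cr control livers. Its exposed and control livers overlapped within each metal, the Cr controls were the lowest group, and the difference was -1.32 (SE 0.28, unadjusted p = 1.31e-04, adjusted p = 0.0878), -1.39 (adjusted p = 0.0217) without Cd exposed liver 5. Rhob, a small GTPase induced by stress, had 8.04, 8.42, 8.48, 8.28 and 8.49 in Cd exposed livers, against 8.55, 8.74, 8.47, 8.96 and 8.70 in Cd control livers, and 8.50, 8.91, 9.08, 8.92 and 9.09 in Cr exposed livers, against 8.30, 7.998, 8.40, 8.56 and 8.11 in Cr control livers. The Cr exposed livers were above the Cr controls with 1 exception, number 1, and 1 Cd control lay inside the range of the Cd exposed livers. Its difference was -0.97 (SE 0.18, unadjusted p = 2.78e-05, adjusted p = 0.0587), with 0.63 (adjusted p = 0.0492) after Cr.

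**Figure D4:**
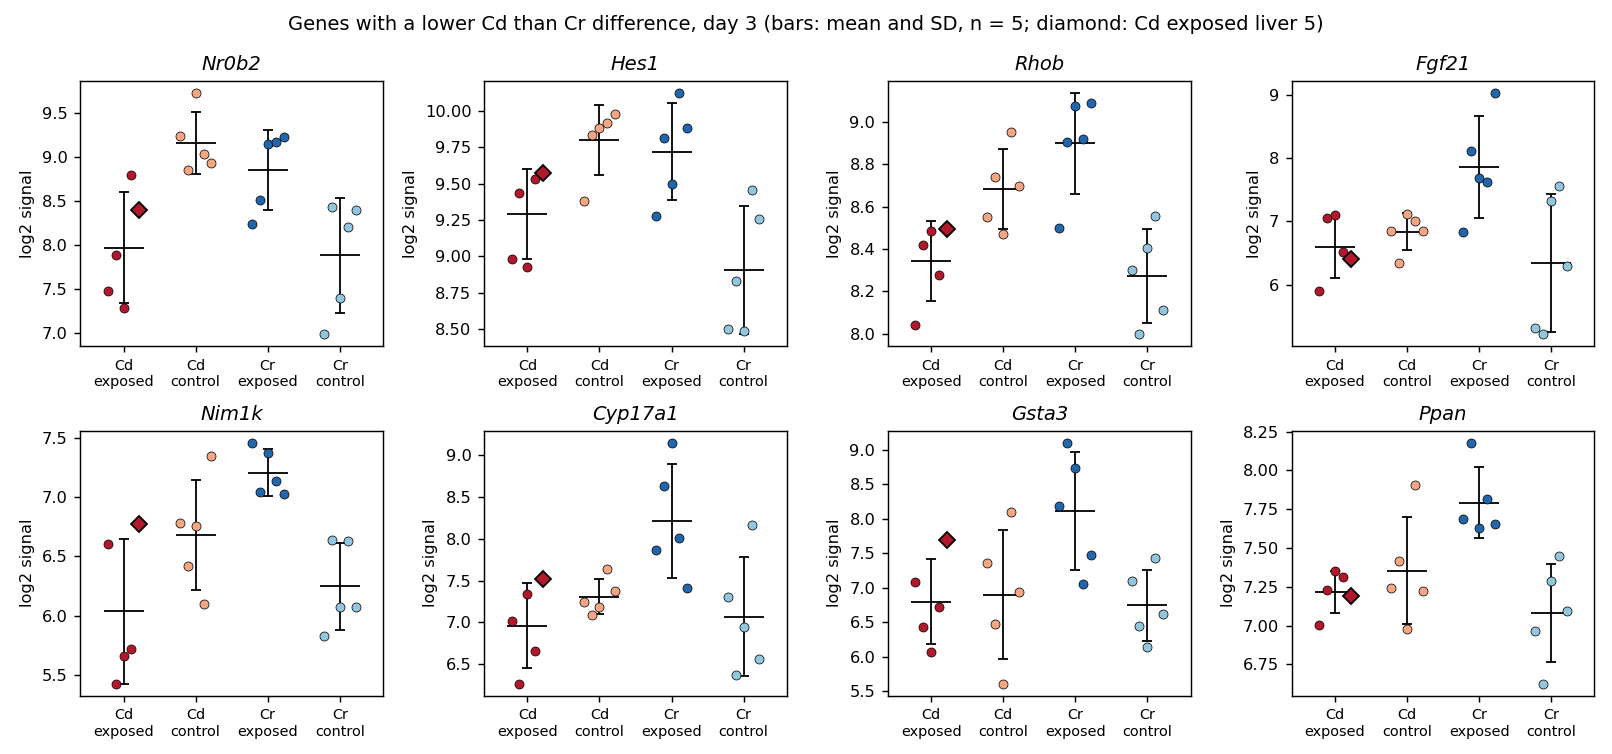
Log2 signal of 8 genes with a negative difference between metals in each of the 20 day 3 livers, by group, with the mean and SD (n = 5) as bars and Cd exposed liver 5 as a diamond. For Fgf21, Cyp17a1, Gsta3 and Ppan the Cr exposed livers are the highest group and the 2 Cd groups overlap, and for Nr0b2 the Cd exposed livers all lie below the Cd controls.

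Some genes of the stress response had negative differences, from Cr livers, Cd livers or both. Fgf21, a hormone that the liver releases under stress and fasting, had log2 signals of 5.90, 7.05, 7.10, 6.52 and 6.41 in Cd exposed livers, against 6.85, 6.35, 7.11, 7.01 and 6.85 in Cd control livers, and of 6.83, 8.11, 7.69, 7.63 and 9.02 in Cr exposed livers, against 5.31, 5.22, 7.33, 7.55 and 6.30 in Cr control livers. The Cr controls were spread over more than 2 log2 units, and the difference was -1.75 (SE 0.60, unadjusted p = 0.00811, adjusted p = 0.267), of which -0.24 came from Cd and 1.51 from Cr. Of 29 genes of the endoplasmic reticulum and integrated stress response 0 were higher and 8 lower at an unadjusted p of 0.05 or less (median -0.11), and Ddit4, an inhibitor of mTOR, had -1.01 (SE 0.26, unadjusted p = 0.00105, adjusted p = 0.14), of which -0.76 (adjusted p = 0.0276) came from Cd. Nim1k, a protein kinase related to AMPK, had 6.605, 5.43, 5.66, 5.72 and 6.77 in Cd exposed livers, against 6.78, 6.42, 6.76, 6.10 and 7.34 in Cd control livers, and 7.46, 7.04, 7.37, 7.13 and 7.03 in Cr exposed livers, against 5.83, 6.64, 6.07, 6.63 and 6.07 in Cr control livers. The 5 Cr exposed livers were above all Cr controls, and the difference was -1.60 (SE 0.36, unadjusted p = 2.30e-04, adjusted p = 0.0976). Of 16 p53 targets 2 were higher and 2 lower. Tp53inp1 had -0.78 (SE 0.20, unadjusted p = 7.26e-04, adjusted p = 0.134) and Gadd45a 0.63 (SE 0.33, unadjusted p = 0.07, adjusted p = 0.512).

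Ribosome biogenesis genes were also on the negative side. Of 37 tested, 0 were higher and 12 lower at an unadjusted p of 0.05 or less (median -0.23). Ppan, which matures the large ribosomal subunit, had log2 signals of 7.004, 7.23, 7.35, 7.32 and 7.19 in Cd exposed livers, against 7.24, 7.41, 6.98, 7.90 and 7.23 in Cd control livers, and of 7.69, 8.18, 7.63, 7.82 and 7.65 in Cr exposed livers, against 6.96, 6.63, 7.29, 7.45 and 7.10 in Cr control livers. All 5 Cr exposed livers were above all Cr controls, and the Cd groups overlapped. The difference was -0.84 (SE 0.22, unadjusted p = 0.0012, adjusted p = 0.14), made of -0.14 (adjusted p = 0.797) after Cd and 0.71 (adjusted p = 0.0662) after Cr. Pprc1, a coactivator of mitochondrial biogenesis, had -0.77 (SE 0.33, unadjusted p = 0.0318, adjusted p = 0.41). The list had a median of -0.04 after Cd and 0.12 after Cr, and in limma 0 members passed the adjusted p for either metal. At an unadjusted p of 0.05 or less, 1 was lower and 0 higher after Cd (4.52% of all genes were lower and 11.6% higher), and 12 were higher and 0 lower after Cr.

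A steroid hydroxylase and some detoxifying enzymes had large negative differences, while only some of the lists counted here were split. Cyp17a1, a steroid hydroxylase, had log2 signals of 7.02, 6.26, 7.34, 6.66 and 7.52 in Cd exposed livers, against 7.25, 7.09, 7.19, 7.64 and 7.38 in Cd control livers, and of 7.86, 8.63, 9.15, 8.01 and 7.41 in Cr exposed livers, against 7.30, 6.36, 6.95, 8.17 and 6.56 in Cr control livers. The groups overlapped in both metals, with 2 Cr exposed livers above all others, and the difference was -1.49 (SE 0.46, unadjusted p = 0.00412, adjusted p = 0.208). Gsta3, a glutathione transferase, had 7.08, 6.43, 6.07, 6.72 and 7.68 in Cd exposed livers, against 7.36, 6.48, 5.61, 8.10 and 6.93 in Cd control livers, and 8.19, 9.10, 8.73, 7.05 and 7.47 in Cr exposed livers, against 7.10, 6.45, 6.14, 7.43 and 6.61 in Cr control livers. Its difference was -1.46 (SE 0.61, unadjusted p = 0.0264, adjusted p = 0.388), nearly all of it from Cr, 1.36. Gsta3 and the quinone reductase Nqo1 are both on the NRF2 list, of which 2 of 23 were higher and 3 lower at an unadjusted p of 0.05 or less, and Nqo1 had 0.99 (SE 0.35, unadjusted p = 0.00973, adjusted p = 0.285), with 1.13 (adjusted p = 0.0142) after Cd. The alcohol dehydrogenase Adh4 had -1.504 (SE 0.65, unadjusted p = 0.0325, adjusted p = 0.412) and the sulfotransferase Sult1c2 had -1.07 (SE 0.45, unadjusted p = 0.0273, adjusted p = 0.391). Of 26 cytochromes P450 of families 1 to 3, 1 was higher and 4 lower, and Cyp3a18 had -0.72 (SE 0.17, unadjusted p = 3.60e-04, adjusted p = 0.112) and Cyp3a9 0.95 (SE 0.61, unadjusted p = 0.139, adjusted p = 0.625). Of 22 conjugating enzymes 0 were higher and 2 lower, and Ugt2b1 had -0.32.

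Of 33 genes of the urea cycle and amino acid breakdown 0 were higher and 6 lower at an unadjusted p of 0.05 or less (median -0.12), where 6.75% of all genes were higher and 4.6% lower. Gpt, alanine aminotransferase, had log2 signals of 7.81, 8.31, 8.09, 8.31 and 8.32 in Cd exposed livers, against 9.65, 9.17, 8.63, 8.69 and 9.04 in Cd control livers, and of 8.98, 9.53, 8.65, 9.83 and 9.11 in Cr exposed livers, against 8.65, 9.90, 8.34, 9.15 and 8.34 in Cr control livers. All Cd exposed livers were below all Cd controls, the Cr groups overlapped, and the difference was -1.21 (SE 0.38, unadjusted p = 0.00478, adjusted p = 0.217). Sds, serine dehydratase, had -1.21 (SE 0.52, unadjusted p = 0.0311, adjusted p = 0.406), and Asl, the urea cycle enzyme that splits argininosuccinate, had -0.49 (SE 0.10, unadjusted p = 1.37e-04, adjusted p = 0.0878). Angptl8, which regulates lipoprotein lipase after feeding, had -1.38 (SE 0.41, unadjusted p = 0.00308, adjusted p = 0.19). Poteml2 had -1.25 (SE 0.46, unadjusted p = 0.0138, adjusted p = 0.316). In fatty acid synthesis 3 of 18 genes were higher and 0 lower, with Scd2 at 0.90 (SE 0.22, unadjusted p = 5.97e-04, adjusted p = 0.13) and Scd at 0.89 (SE 0.45, unadjusted p = 0.06, adjusted p = 0.489), both desaturases. In fatty acid oxidation 1 of 21 was higher, Pdk4, which holds pyruvate back from oxidation, with 0.79 (SE 0.25, unadjusted p = 0.00479, adjusted p = 0.217), and 3 were lower, while Vnn1, a pantetheinase, had -0.63 (SE 0.32, unadjusted p = 0.0603, adjusted p = 0.489).

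The lists below had at most 3 members past an unadjusted p of 0.05 and are given by their 2 largest differences. Of 19 cholesterol synthesis genes 0 passed, and Tm7sf2 had 0.60 and Insig1 -0.58. Of 16 glucose genes 0 passed, and Pck2 had -0.30, with 0.051 at its other probe set, and Irs2 0.26. Of 16 heat shock genes 3 were higher, and Hspa1a had 0.67 (unadjusted p = 0.0944) and Hsph1 0.43 (unadjusted p = 0.0224). Of 20 iron and heme genes 2 were higher, with Blvra, biliverdin reductase, at 0.57 (SE 0.16, unadjusted p = 0.00175, adjusted p = 0.159), and Hamp, the hormone hepcidin, had -0.52. Of 23 serpin and coagulation genes 1 was higher and 1 lower, with Serpina3m at -0.33 (SE 0.08, unadjusted p = 7.96e-04, adjusted p = 0.134) and Serpina7, thyroxine-binding globulin, at -0.50. Of 13 clock genes 1 was higher and 1 lower, and Per2 had 0.56, with -0.035 at its other probe set, and Hlf 0.46. Pbsn, of the 21 sex-dependent genes, had -1.25, and Slc39a4, a zinc importer, had -0.47, with unadjusted p-values of 0.267 and 0.143. Of the genes by which the study had chosen its doses, Emp1 had 0.56, C5 0.34, Hmox1, heme oxygenase, 0.24, Fabp1 0.10 and Atf3 -0.36, with unadjusted p-values from 0.0507 for C5 to 0.498 for Hmox1, and Klf5 was below the filter.

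Days 1 and 7 share no arrays with day 3, and the same contrast was taken for them from 1 fit of all 59 arrays with each day's own controls (4 livers in the Cd exposed group of day 1, 5 in every other group). On day 1 the difference between metals was called at 3845 of 15521 probe sets (24.8%), 1476 higher and 2369 lower, and on day 7 at 112 (0.722%), 45 higher and 67 lower. Of the 127 probe sets chosen at day 3, 77 had the same sign on day 1 and 102 on day 7, against 8550 and 9158 of all 15521 probe sets. On day 1, 23 of the 127 were called in the same direction and 10 in the opposite one, and on day 7, 13 and 0. The change of the difference from day 1 to day 3 was called at 1190 probe sets (7.67%), 732 higher and 458 lower, and at 30 of the 127. The change from day 7 was called at 0 in limma, with 840 (5.41%) at an unadjusted p of 0.05 or less.

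Isg15 and Mx1 had positive differences on all 3 days, and Gbp2 a negative one on day 1, -0.47. Isg15 had 2.26 on day 1 (adjusted p = 2.65e-06), 1.11 on day 3 and 0.87 on day 7 (adjusted p = 0.234), and Mx1 had 1.27, 1.70 and 1.04. The median of the list was 0.91, 0.49 and 0.13. Positive differences were found for 3 of the 19 macrophage markers on day 1 (12 were called lower and 1 higher), for 15 at day 3 and for 17 at day 7. Of all 9394 genes, 4070, 4555 and 3609 were positive on days 1, 3 and 7. On day 1, 1716 of them were called lower and 925 higher. Ms4a6a, Aif1 and Lgals3 were negative on day 1 and positive on day 3. Ms4a6a had -1.20 on day 1 (adjusted p = 0.00401), 1.73 on day 3 and 1.07 on day 7 (adjusted p = 0.0895), and its change from day 1 to day 3 was 2.93 (adjusted p = 2.14e-05). Aif1 had -1.67, 0.93 and 0.55, and Lgals3 had -1.61, 1.22 and 0.61. The Kupffer cell genes Cd163 and Clec4f were lowest on day 1. Cd163 had -4.33 on day 1 (adjusted p = 1.60e-08), -1.79 on day 3 and -0.18 on day 7 (adjusted p = 0.919), and Clec4f had -3.79, -1.12 and 0.45. The macrophage list had medians of -1.61, 0.46 and 0.53. Mcm6 was negative on days 1 and 7, with -1.65 and -0.90. Nr0b2 and Hes1 were positive on day 1, with 1.37 and 0.51, and negative on day 7, with -2.44 (adjusted p = 0.0185) and -1.59 (adjusted p = 0.00968). Cish had 3.69 on day 7 (adjusted p = 0.00326).

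**Figure D5:**
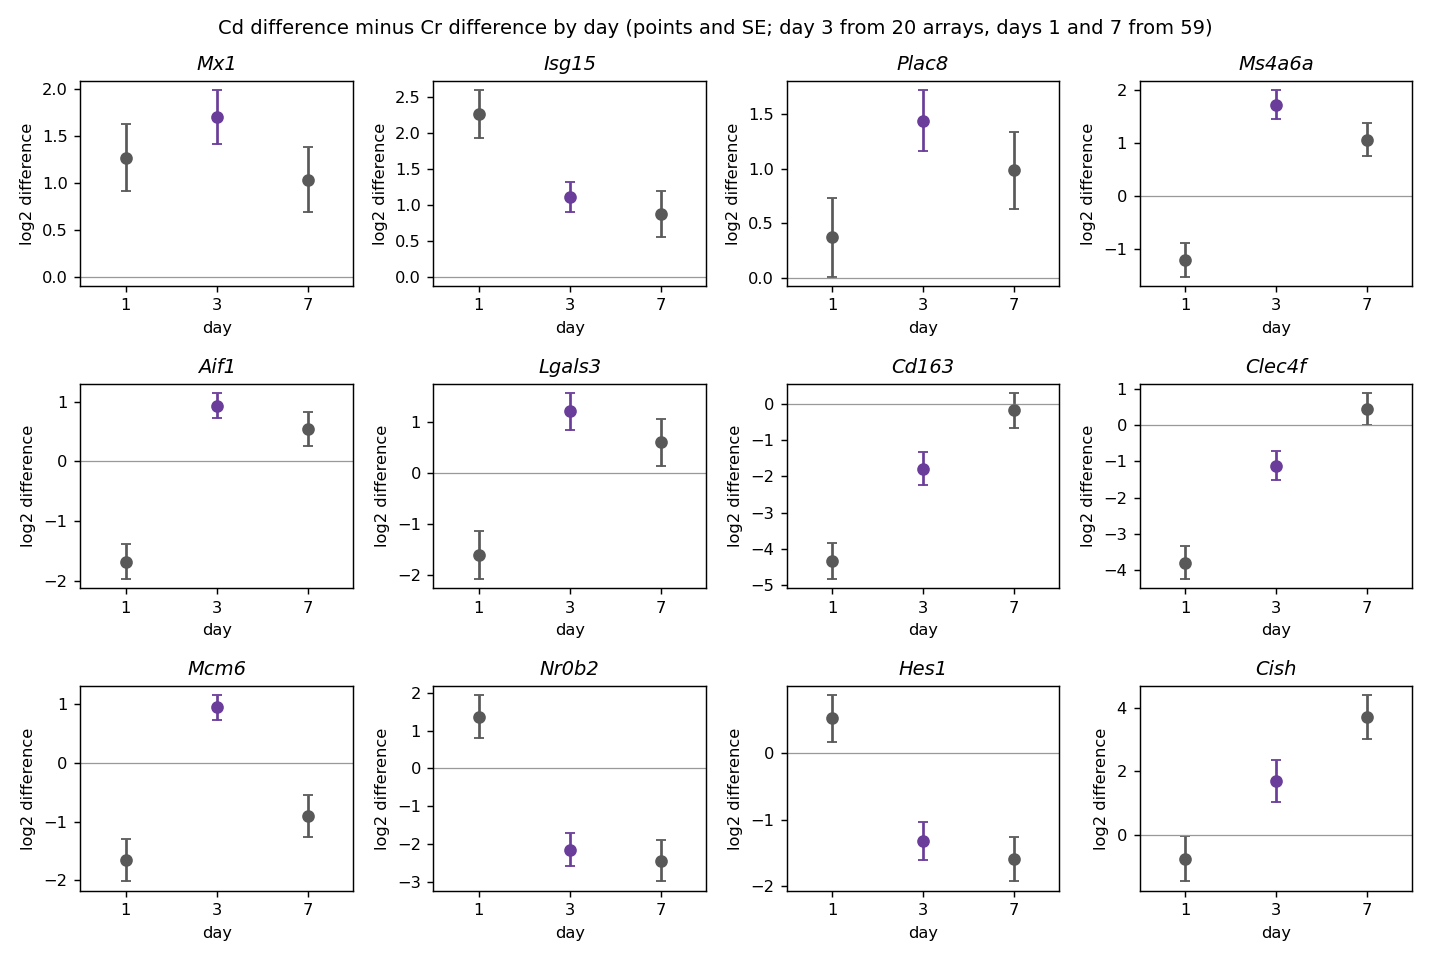
Difference between metals (Cd difference minus Cr difference, log2) for 12 genes on days 1, 3 and 7, with its SE; day 3 comes from the fit of 20 arrays and the other days from the fit of 59. Ms4a6a, Aif1 and Lgals3 are negative on day 1 and positive on day 3, Cd163 and Clec4f are near 0 on day 7, and Nr0b2 and Hes1 are positive on day 1 and negative on days 3 and 7.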

How the data were processed

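Total RNA of whole liver was hybridised to Affymetrix rat genome arrays, 1 array a liver. The deposited log2 values had been made by the authors with RMA, which corrects the background, normalizes between arrays and sums the probes of a set, in the Partek software, and no raw scans were used here. Arrays give no counts, so their number limits the precision. From these values 57 control probe sets of 31099 were left out, and the 15521 with the highest mean signal over the 20 day 3 arrays were tested (lowest mean 5.41). The fit had 4 groups of 5 livers, no covariate and 16 residual degrees of freedom (limma 3.58.1, R 4.3.3, Benjamini-Hochberg adjustment over all probe sets tested). Where nothing else is said, an adjusted p is from this fit. The study's own methods pooled controls over days, which was run as an alternative. Days 1 and 7 came from a fit of all 59 arrays. Gene names came from the platform annotation: 20826 probe sets had 1 symbol, 436 several and 9780 none. A gene was read from its brightest probe set with 1 symbol (9394 genes tested). Upstream sequences came from RefSeq.

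The genes named were, in each direction, the 15 largest differences with an unadjusted p of 0.05 or less and 1.8-fold, since 0 passed the adjusted test, then the 2 largest of each list with at least 5 tested members, and the genes used to choose doses. The comparison, the 43 gene lists and the markers were chosen with earlier results of these data known. The replicates are labelled biological. Alternatives were pooled controls, all 59 arrays, other filters and normalizations, other variance settings, array weights, replicate blocks and leaving out each liver. Leaving out both livers numbered 5 of the Cd experiment and the block by number over 4 groups were added after seeing the data.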

Additional observations from a re-analysis of the deposited data

Results flagged for a closer look

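In 404 groups of 5 livers (101 genes in 4 groups), 21 held a liver whose gap to the nearest of the others was over 0.71 of the group's range. For separate samples of normal values chance gives about 1 in 20, and 21 of 404 is near that share. The genes here were read in the same 20 livers and many were named for their values. That rate is therefore only a rough guide and does not settle any single liver. The livers below are listed as a description only. Cd exposed liver 2 stood apart for log2 signals of Dusp6 at 10.78 (others 10.55 to 10.60). Cd exposed liver 5 stood apart for log2 signals of Lcn2 at 5.12 (others 12.95 to 13.64), Orm1 at 12.91 (others 13.77 to 14.09) and Blvra at 7.89 (others 8.44 to 8.57). Cd control liver 1 stood apart for log2 signals of Hes1 at 9.38 (others 9.83 to 9.98) and Blvra at 7.99 (others 7.77 to 7.81). Cd control liver 5 stood apart for log2 signals of Atf3 at 6.53 (others 5.86 to 6.02) and Ier3 at 9.33 (others 8.42 to 8.67). Cr exposed liver 2 stood apart for log2 signals of Adh4 at 8.85 (others 6.25 to 6.76), Blvra at 8.24 (others 7.79 to 7.90) and Fcgr2b at 10.30 (others 9.98 to 10.07). Cr exposed liver 3 stood apart for log2 signals of Emp1 at 8.47 (others 7.16 to 7.48), S100a11 at 7.28 (others 6.38 to 6.602) and S100a4 at 8.61 (others 6.30 to 6.87). Cr exposed liver 4 stood apart for log2 signals of Tp53inp1 at 6.08 (others 5.83 to 5.89). Cr exposed liver 5 stood apart for log2 signals of Usp18 at 7.46 (others 7.84 to 7.97), Orm1 at 12.16 (others 12.90 to 13.08) and Cfd at 7.35 (others 7.84 to 8.01). Cr control liver 2 stood apart for log2 signals of Hspa1a at 5.27 (others 5.66 to 5.77). Cr control liver 3 stood apart for log2 signals of Nqo1 at 7.15 (others 7.60 to 7.72). Cr control liver 5 stood apart for log2 signals of Mcm4 at 7.36 (others 6.91 to 6.98). No cause was tested for any of them.

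The difference between metals changed between day 1 and day 3, by the test of the change itself in limma, for 24 of the 99 named genes tested. Of all 15521 probe sets 1190 (7.67%) did. Many of the genes were named for the size of their day 3 difference, which is part of this change. A higher share among them is therefore built in, and the count is no separate evidence. Day 3 minus day 1 was positive for macrophage and monocyte genes, Cd5l by 4.49 (adjusted p = 0.0048), Ccl6 by 3.04 (adjusted p = 4.22e-05), Ms4a6a by 2.93 (adjusted p = 2.14e-05), Lgals3 by 2.83 (adjusted p = 0.0051), Clec4f by 2.67 (adjusted p = 0.00569), Aif1 by 2.61 (adjusted p = 2.97e-05), Cd163 by 2.54 (adjusted p = 0.0174), Ly86 by 2.08 (adjusted p = 4.77e-04) and Fcgr3a by 2.05 (adjusted p = 0.00478). It was also positive for Mcm6 by 2.59 (adjusted p = 7.99e-04), Top2a by 1.83 (adjusted p = 0.0363), Per2 by 1.79 (adjusted p = 0.00853), Dusp6 by 1.74 (adjusted p = 0.02), Mcm4 by 1.56 (adjusted p = 0.00332), Blvra by 1.42 (adjusted p = 5.57e-05), Hsph1 by 1.19 (adjusted p = 0.0254) and Mcm3 by 1.10 (adjusted p = 0.00952). It was negative for Nr0b2 by -3.52 (adjusted p = 0.00363), Pck2 by -1.92 (adjusted p = 7.50e-04), Ddit4 by -1.87 (adjusted p = 0.0305), Oas1a by -1.85 (adjusted p = 0.0355), Hes1 by -1.83 (adjusted p = 0.013), Cyp3a18 by -1.35 (adjusted p = 0.0242) and Serpina3m by -0.49 (adjusted p = 0.029). The day 1 differences of these 9 macrophage and monocyte genes were negative, down to -5.53 for Cd5l, the largest of these in size.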

How the results depend on the processing

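With 5 livers a group, a difference of differences is estimated less precisely than either arm. The calls for the difference between metals depended on the setting. There were 60 (42 higher, 18 lower) with controls pooled over days, 9 with all 59 arrays in the fit, 10 among the brightest probe sets under a stricter filter, 6 after quantile normalization again, 20 (14 higher, 6 lower) with arrays centred on their median, 13 with array weights and 118 without both Cd livers numbered 5, and 0 to 161 when 1 liver was left out. The 161 came without Cd exposed liver 5. The others were 9 without Cr control 4, 6 without Cd exposed 2, 4 each without Cr exposed 1 and 4, 2 each without Cd control 5 and Cr exposed 2, and 1 without Cd control 3. No filter, a filter within groups, no moderation and a robust trend kept 0 calls. Of the 99 named genes tested, 31 passed without Cd exposed liver 5 and 11 with pooled controls.

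At unadjusted p and 1.8-fold, 57 were higher with pooled controls and 30 under the stricter filter (68 to 126 without 1 liver), and 20 were lower under the stricter filter (31 to 55). For Cd there were 293 calls with all 59 arrays and 217 under the stricter filter (227 to 748), and centring gave 321 higher and 94 lower, against 406 and 56. For Cr there were 98 with pooled controls, 1 with all 59 arrays, 3 with no filter, 11 each after quantile normalization, centring and a robust trend, 4 with no moderation and 8 without both Cd livers numbered 5 (2 to 52). Between control groups there were 1528 with pooled controls, 31 with all 59 arrays, 620 with no filter, 2 under the stricter filter, 39 with the filter within groups, 21 after quantile normalization, 27 with no moderation, 6 with a robust trend and 91 with array weights (3 to 15). On day 7 there were 0 with pooled controls in limma, 44 under the stricter filter and 210 with array weights (36 to 192), and on day 1 2858 to 4891. The change between days 1 and 3 had 3315 with pooled controls and 2455 with array weights (765 to 2283). The cause of these shifts was not tested.

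Replicate numbers are shared by the groups. Over 10 pairs the deviations of same-numbered livers from their group means correlated at 0.0815 to 0.280, 8 of 10 over 0.1, with a mean of 0.15. Of the 10, 6 correlated best with their own number. The mean for livers of other numbers, -0.037, is no separate evidence. Deviations sum to 0 within a group, so the same-number mean nearly fixes it. Pairs were to be taken only where every correlation was over 0.1, so the fit without a block was kept. The same-number values lean towards a shared factor, which the labels do not name and which was not tested. With the replicate block by metal and number, 3 probe sets were called for the difference and 10 for Cr, against 0 and 32 without a block. With the replicate block by number over the 4 groups there were 7 for the difference, 59 for Cr and 20 between controls.

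Some signs turned. With pooled controls the Cr value was 0.0509 for RT1-Ba, -0.0733 for Dusp6, 0.373 for Lum and 0.551 for Dcn, and the difference between metals was 0.0849 for Hamp, -0.0544 for Mki67 and -0.0285 for Top2a. With array weights the Cr value of Lcn2 was -0.0344. Without both Cd livers numbered 5 the difference for Serpina7 was 0.308. Leaving out 1 liver, the Cr value ran from -0.0866 to 0.0350 for Ly86, -0.0387 to 0.349 for RT1-Bb, -0.231 to 0.0291 for RT1-Ba, -0.291 to 0.453 for Lcn2, -0.0165 to 0.587 for Spink1, -0.103 to 0.306 for Dusp6 and -0.497 to 0.0382 for Dcn, the Cd value from -0.419 to 0.204 for Gsta3 and -0.229 to 0.00278 for Ppan, and the difference for Serpina7 from -0.853 to 0.0609.

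Leaving out 1 liver moved the difference between metals by over 1.5 times for 15 of the 99 named genes tested. Beside Serpina7 it ran from -1.36 to -0.691 for Cd5l, 0.36 to 0.782 for Emp1, -0.737 to -0.256 for Hamp, 0.0878 to 0.447 for Hmox1, 0.423 to 0.909 for Hspa1a, 0.13 to 0.453 for Irs2, 0.284 to 0.651 for Mki67, -1.82 to -0.701 for Pbsn, -0.391 to -0.189 for Pck2, 0.389 to 0.776 for S100a11, 0.608 to 1.41 for S100a4, 0.518 to 1.09 for Scd, -0.786 to -0.362 for Tat and -0.453 to -0.197 for Ugt2b1.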
